A study of Mus musculus with 6 samples.

Results

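Autophagy and lysosome genes were examined in muscle RNA of FLExDUX4 mice and wild-type (WT) littermates. The 43 genes were listed by symbol, from the kinase that starts autophagy to the enzymes of the lysosome, and all 43 were found among the 52550 mouse genes of the table. FLExDUX4 mice carry a human DUX4 transgene inserted at the Rosa26 locus in inverted orientation, and the mice used were hemizygous. Without Cre recombinase the transgene stays inverted, and the model is known for low, leaky DUX4 expression. WT mice were littermates without the transgene. Both groups were male, with 3 mice each, and the labels give quadriceps muscle at 13 weeks, whereas the methods of the study give triceps muscle at 2 months. Libraries were made with QuantSeq, a method that primes on the poly(A) tail and yields about one fragment per RNA molecule, and for this reason counts scaled to a total of 1000000 (CPM) need no correction for transcript length when genes are compared with each other.

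Autophagy is the process by which a cell encloses cytoplasm, protein aggregates or mitochondria in a double membrane, the autophagosome, and delivers them to the lysosome for digestion. The ULK kinase complex starts the process, a lipid kinase complex around Pik3c3 marks the membrane, Atg2 and Atg9 proteins supply lipid, and a ubiquitin-like conjugation system attaches Atg8 proteins (the LC3 and GABARAP families) to the growing membrane, where cargo receptors dock. In skeletal muscle autophagy clears damaged mitochondria and protein during fasting and exercise, and many of its genes are targets of FoxO transcription factors, while TFEB drives lysosomal genes.

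The counts analysed were totals over the mice of each genotype, 13110125 on genes in FLExDUX4 and 18367364 in WT, so every value below is a total over 3 mice given without an error between mice, and no difference was checked over replicates here. Ratios of these totals were scaled by TMM (a trimmed mean over genes) and are given on the log2 scale as FLExDUX4 over WT, with a 95% Clopper-Pearson interval that covers counting error only. A single mouse could set any of them. Spike-in RNAs, added from outside the muscle, gave 220016 and 259913 counts, and scaling to them lowered every log2 ratio by the same amount, from a median of -0.001 to -0.28 over the 13396 genes compared. Values are therefore to be read against that median, and the position of a gene relative to the other genes is the same under both scalings. The summed level of 8 muscle fibre markers was 97855 CPM in FLExDUX4 and 98131 CPM in WT, so fibre transcripts were abundant in both. In whole muscle, fewer cells of a type and less RNA per cell cannot be told apart. The 4 hindlimb markers had 10 counts in all in FLExDUX4 and 12 in WT, with Pitx1 at 0 and 1, while Tbx5, a forelimb factor, had 14 and 34 counts, so these few counts did not mark the labelled quadriceps as a hindlimb muscle. The transgene was not analysed here, so the genotype labels were not checked against it.

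The promoters of the 3 members with the highest ratios among those whose counting interval excluded 0 (Atg2b, Optn and Atg5) and of the member with the lowest ratio (Atg4d) are shown with that of Lamp1, the classic target of TFEB among these genes. Each line gives the 250 bases before the RefSeq gene start (GRCm38.p6), read 5′ to 3′ along the strand of the gene, and capitals mark CACGTG, the E-box core of the motif that TFEB binds. Atg2b lies on the minus strand at chr12:105685242-105685491, Optn on the minus strand at chr2:5064118-5064367, Atg5 on the plus strand at chr10:44268089-44268338, Atg4d on the plus strand at chr9:21265035-21265284 and Lamp1 on the plus strand at chr8:13158911-13159160.
Atg2b: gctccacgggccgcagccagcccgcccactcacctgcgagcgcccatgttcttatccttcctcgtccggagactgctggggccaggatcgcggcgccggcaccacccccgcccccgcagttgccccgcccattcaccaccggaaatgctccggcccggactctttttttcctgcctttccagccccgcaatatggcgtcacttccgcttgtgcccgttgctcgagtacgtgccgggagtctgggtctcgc
Optn: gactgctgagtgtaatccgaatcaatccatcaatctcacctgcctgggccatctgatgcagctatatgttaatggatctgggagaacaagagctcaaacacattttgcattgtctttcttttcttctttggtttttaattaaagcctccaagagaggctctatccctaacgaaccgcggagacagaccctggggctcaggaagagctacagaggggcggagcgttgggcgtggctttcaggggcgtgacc
Atg5: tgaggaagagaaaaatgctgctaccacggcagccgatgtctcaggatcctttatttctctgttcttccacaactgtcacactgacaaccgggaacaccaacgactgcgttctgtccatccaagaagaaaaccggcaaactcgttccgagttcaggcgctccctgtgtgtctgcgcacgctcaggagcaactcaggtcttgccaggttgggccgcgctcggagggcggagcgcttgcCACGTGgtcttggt
Atg4d: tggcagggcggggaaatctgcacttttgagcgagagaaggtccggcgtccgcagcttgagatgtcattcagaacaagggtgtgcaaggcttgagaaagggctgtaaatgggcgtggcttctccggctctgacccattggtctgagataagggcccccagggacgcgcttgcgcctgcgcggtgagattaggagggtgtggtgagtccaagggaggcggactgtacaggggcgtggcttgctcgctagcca
Lamp1: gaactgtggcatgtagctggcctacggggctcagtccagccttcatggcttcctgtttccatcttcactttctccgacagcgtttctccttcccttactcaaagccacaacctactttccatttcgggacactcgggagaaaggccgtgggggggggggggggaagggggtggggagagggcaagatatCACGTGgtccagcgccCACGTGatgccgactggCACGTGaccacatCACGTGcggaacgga

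The Lamp1 window holds 4 copies of CACGTG, which start 61, 45, 28 and 15 bases before the gene start, and the Atg5 window holds 1, which starts 14 bases before it. The windows of Atg2b, Optn and Atg4d hold none. Of the 43 members, 35 had a promoter in the RefSeq table, with 40 windows in all. CACGTG, which reads the same on both strands, was present in 7 of these 40 windows (17.5%), against 6.02% of all 32851 windows of the same length. The 7 genes were Atg3, Atg5, Atg7, Bnip3, Ctsd, Ctsl and Lamp1. Their log2 ratios ran from -0.10 to 0.54 with a median of 0.09, and those of the 28 members without a match had a median of 0.13. The longer CLEAR motif is a palindrome in which the E-box core is preceded by GT and followed by AC. Its exact letters were in 0 of the 40 windows and in 0.24% of all windows. Cores with other flanking letters, as in the Lamp1 window, were not counted as CLEAR. At a share of 0.24%, 40 windows are too few for a comparison. The FoxO core GTAAACA, searched on both strands, was in 0 of the 40 and in 3.17% of all. These matches describe letters in a short window and say nothing of binding. RefSeq and GENCODE starts differ for some members. Among the 7 genes, the windows of Atg7 and Ctsl lie wholly inside the gene as annotated by GENCODE.

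Of the 43 members, 42 passed the filter on low counts. Atg9a, the lipid scramblase of the autophagosome precursor, did not, with 8 counts in FLExDUX4 and 7 in WT. Of the 42, 11 had a log2 ratio of at least 0.25, which is 26.2%, beside 26.8% of all genes compared, and 1 (2.38%) had a ratio of at most -0.25, beside 26.9%. The share on the high side was thus near that of all genes, and the share on the low side was below it. Asking in addition that the counting interval exclude 0 left 9 higher members (21.4%, beside 17% of all genes) and 1 lower member (2.38%, beside 16.8%). Of the 42, 28 had a ratio above 0 (66.7%, beside 49.9%), 15 an interval above 0 (35.7%, beside 20.5%) and 2, Atg4d and Lamp1, an interval below 0 (4.76%, beside 20.6%). Genes with few counts scatter more, so the same shares were taken over genes with at least 200 counts in each total, a minimum chosen after seeing the data. There 7 of 31 members (22.6%) were past 0.25 and 1 of 31 (3.23%) past -0.25, beside 15.3% and 10.1% of 4664 genes. A ratio above 0 was seen in 22 of the 31 (71%, beside 53.5%), an interval above 0 in 13 (41.9%, beside 25.2%) and an interval below 0 in 2 (6.45%, beside 20.9%). The median log2 ratio was 0.09 over the 42 members and also 0.09 over all 43, and the summed counts of the 43, 37999 and 50959, gave 0.09 (interval 0.07 to 0.11). With spike-in scaling the median was -0.18, still above the all-gene median of -0.28 by the same margin of 0.09. Under that scaling 4 members were past 0.25 (9.52%, beside 14.4% of all genes) and 15 past -0.25 (35.7%, beside 53.3%).

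**Figure D1:**
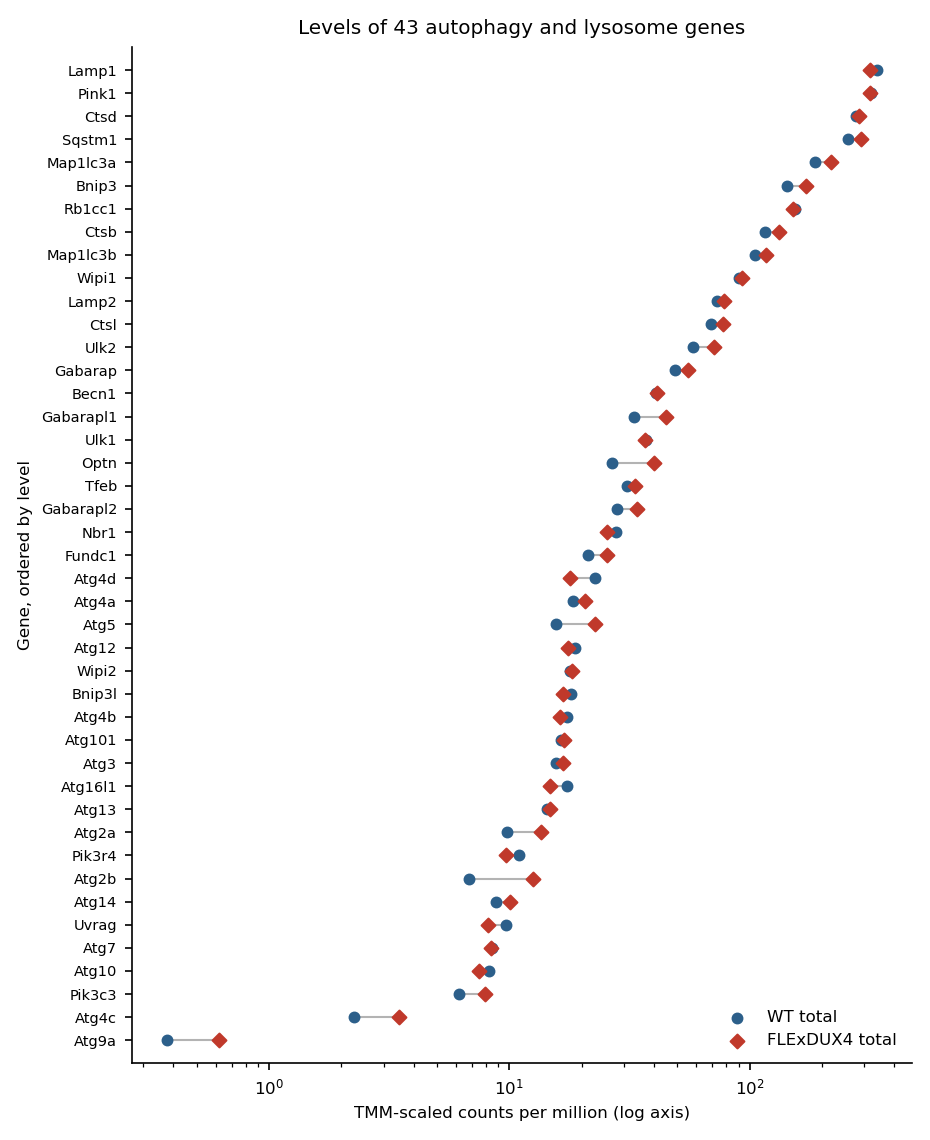
TMM-scaled CPM of each of the 43 genes (log axis) in the FLExDUX4 total (diamonds) and the WT total (circles), genes ordered by level. Levels run from under 1 CPM for Atg9a to 337.3 CPM for Lamp1 in WT, and the widest separations among well counted genes are those of Atg2b, Optn and Atg5.

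The members spanned a wide range of levels, and the abundant ones differed little. The 5 members with the most counts held 48.7% of the members' counts in FLExDUX4 and 50.2% in WT, and their log2 ratios ran from -0.10 to 0.23. Lamp1, the main glycoprotein of the lysosomal membrane, had 4092 counts in FLExDUX4 and 6260 in WT, or 315.4 and 337.3 CPM. Pink1, the kinase that marks depolarised mitochondria for removal, had 316.3 and 319.7 CPM, a log2 ratio of -0.02 (interval -0.07 to 0.04). Ctsd, the aspartic protease cathepsin D, had 283.9 and 277.4 CPM, a ratio of 0.03 (interval -0.03 to 0.09). The levels of these 3 genes ranked at percentiles 98.1 to 98.3 of the genes compared, and for Pink1 and Ctsd the counting interval held 0.

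In the ULK complex, 4 of 5 genes had log2 ratios between -0.03 and 0.05 with intervals that held 0. Rb1cc1, the scaffold FIP200, had 1966 counts in FLExDUX4 and 2868 in WT, and Ulk1, the kinase itself, had 476 and 688, which after scaling is 36.7 and 37.1 CPM. The exception was Ulk2, the paralog of Ulk1, with 922 and 1082 counts, or 71.1 and 58.3 CPM. Its log2 ratio was 0.29 (interval 0.16 to 0.41), a 1.22-fold higher total, which was 0.01 with spike-in scaling. Ulk2 was the more abundant kinase of the pair in both genotypes, and its share of the counts of both paralogs, which needs no scaling, was 66.0% (interval 63.4% to 68.4%) in FLExDUX4 and 61.1% (58.8% to 63.4%) in WT, with intervals that just overlapped.

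The lipid kinase complex had a median log2 ratio of 0.02. Becn1, its regulatory subunit Beclin 1, had 536 and 758 counts, or 41.3 and 40.8 CPM. Uvrag, the subunit of the late form of the complex, had the lowest ratio of -0.24 (interval -0.61 to 0.11), and Pik3c3, the catalytic subunit, the highest of 0.37 (interval -0.03 to 0.77), from 103 and 114 counts. The counting intervals of all 5 genes held 0, and the narrowest was that of Becn1, -0.15 to 0.18.

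Among the genes that supply membrane, the Atg2 lipid transfer proteins were higher in FLExDUX4 and the WIPI proteins, which recruit them to the membrane, were close to WT. Atg2b (protein-coding, GRCm38 chr12:105616136-105685211) had 162 counts in FLExDUX4 and 126 in WT, although the WT total was deeper, which is 12.5 and 6.79 CPM. Its log2 ratio of 0.88 (interval 0.53 to 1.23) was the highest of the 42 members compared, a 1.84-fold higher total, and stayed at 0.60 with spike-in scaling. Atg2a (protein-coding, GRCm38 chr19:6241668-6262335) had 176 and 182 counts, or 13.6 and 9.81 CPM, a ratio of 0.47 (interval 0.16 to 0.78), and 0.19 with spike-in scaling. Both Atg2 genes thus lay above 0 under both scalings. Wipi1 had 93.3 and 90.5 CPM and Wipi2 had 18.3 and 17.9 CPM, with ratios of 0.04 and 0.03 whose intervals held 0.

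In the conjugation system 4 of 10 genes were above 0, beside 49.9% of all genes, and the median was -0.05. Atg5, which joins Atg12 and Atg16l1 in the complex that attaches Atg8 proteins to lipid, was the one gene of this group with an interval above 0. Atg5 (protein-coding, GRCm38 chr10:44268358-44364291) had 294 counts in FLExDUX4 and 290 in WT, or 22.7 and 15.6 CPM. Its log2 ratio was 0.54 (interval 0.30 to 0.78), a 1.45-fold higher total, and 0.26 with spike-in scaling. Both partners lay below 0 with intervals that held it. Atg12 had 227 and 349 counts and a ratio of -0.10 (interval -0.35 to 0.14), and Atg16l1 had 191 and 322 counts and a ratio of -0.24 (interval -0.50 to 0.03). The E1-like enzyme Atg7 had 8.40 and 8.46 CPM, and the E2-like enzymes Atg3 and Atg10 had ratios of 0.09 and -0.13 with intervals that held 0.

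The Atg4 proteases, which trim Atg8 proteins before conjugation and release them afterwards, held the sole member past -0.25 with TMM scaling. With upper quartile or gene total scaling Uvrag and Atg16l1 also passed it, which makes 3, and with spike-in scaling 15 did. Atg4d (protein-coding, GRCm38 chr9:21265293-21277772) had 232 counts in FLExDUX4 and 421 in WT, or 17.9 and 22.7 CPM. Its log2 ratio was -0.34 (interval -0.58 to -0.11), and -0.62 with spike-in scaling. The last 500 bases of Atg4d overlap the opposite-strand gene Kri1, and the strand setting of the counting was not given in the sources used here. The same holds for Becn1, Map1lc3b, Sqstm1, Bnip3, Lamp1 and Ctsb with other genes, while Atg9a, Map1lc3b and Ctsd end within a gene model on their own strand, so the counts of these members are less certain. Within the family of 4, Atg4d took 30.7% of the counts (interval 27.4% to 34.1%) in FLExDUX4 and 37.4% (34.6% to 40.3%) in WT, while Atg4a took 35.4% (32.0% to 39.0%) and 30.2% (27.5% to 33.0%). Atg4d was therefore the most counted Atg4 gene in WT and Atg4a in FLExDUX4, where the intervals of these paralogs overlapped. Atg4c, the least counted, had 45 and 42 counts and a ratio of 0.61 whose interval, -0.02 to 1.26, held 0.

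**Figure D2:**
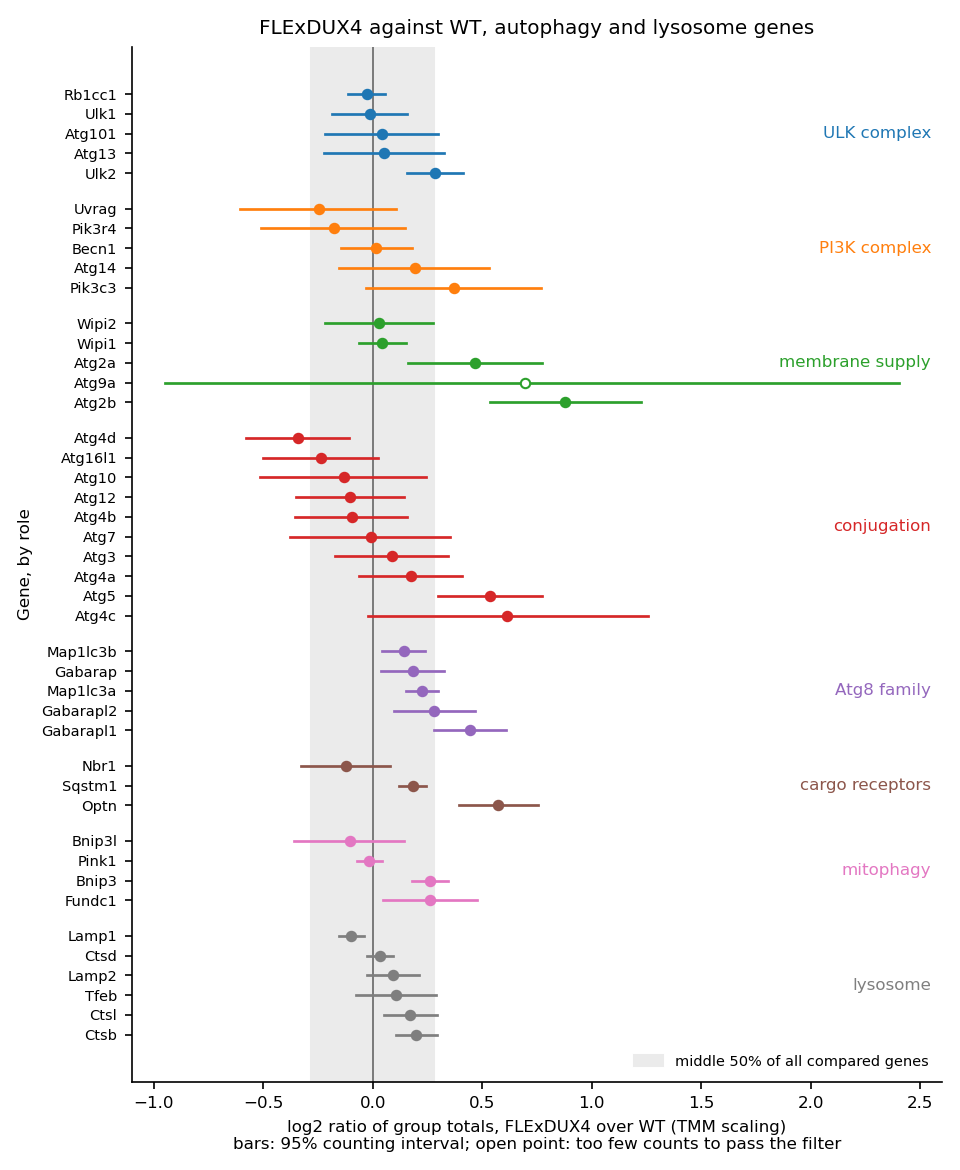
The log2 ratio of the FLExDUX4 total to the WT total for each gene, grouped by role and coloured by group, with bars for the 95% counting interval and a grey band for the middle 50% of all 13396 genes compared. All 5 Atg8 family genes lie right of 0 (the median of the family is -0.05 with spike-in scaling, and 49.9% of all genes lie right of 0). The membrane supply genes do too, though the bars of Wipi1, Wipi2 and Atg9a hold 0. Lysosomal genes stay inside the band. Atg2b, Optn and Atg5 are the highest of the genes beyond the band whose bars exclude 0, and Atg4d lies beyond it on the low side.

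The Atg8 family was the role group whose members all lay on one side with intervals that excluded 0, beside 20.5% of all genes with an interval above 0 and 25.2% of those with at least 200 counts in each total. These small ubiquitin-like proteins coat the autophagosome and bind cargo receptors. The family total was 6087 counts in FLExDUX4 and 7462 in WT, or 469.1 and 402.1 CPM, a log2 ratio of 0.22 (interval 0.17 to 0.27), while the median over the family was 0.23, and -0.05 with spike-in scaling. Gabarapl1 (protein-coding, GRCm38 chr6:129533160-129542346), a GABARAP paralog and known FoxO target, had 582 counts in FLExDUX4 and 612 in WT, or 44.9 and 33.0 CPM. The FLExDUX4 total was 1.36-fold higher, a log2 ratio of 0.44 (interval 0.28 to 0.61) that was 0.17 with spike-in scaling. Gabarapl2 had 441 and 519 counts, or 34.0 and 28.0 CPM, a ratio of 0.28 (interval 0.10 to 0.47). Map1lc3a, the most abundant of the family, had 2831 and 3463 counts, or 218.2 and 186.6 CPM, a ratio of 0.23 (interval 0.15 to 0.30). Gabarap and Map1lc3b, which encodes the LC3B used as the standard autophagosome marker, had ratios of 0.18 (interval 0.04 to 0.33) and 0.14 (interval 0.04 to 0.24). With spike-in scaling Gabarap, Map1lc3a and Map1lc3b were below 0, at -0.09, -0.05 and -0.13, and Gabarapl2 was at 0.01.

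Of the cargo receptors, Optn stood apart from the others. Optn (protein-coding, GRCm38 chr2:5020642-5064051), which encodes optineurin and links ubiquitin on mitochondria and aggregates to LC3, had 518 counts in FLExDUX4 and 498 in WT, or 39.9 and 26.8 CPM. Its log2 ratio was 0.57 (interval 0.39 to 0.75), a 1.49-fold higher total, and 0.30 with spike-in scaling. Sqstm1, the abundant receptor p62, had 3779 and 4763 counts, or 291.3 and 256.6 CPM, a ratio of 0.18 (interval 0.12 to 0.24) that was -0.09 with spike-in scaling. Nbr1 had 332 and 517 counts and a ratio of -0.12 (interval -0.33 to 0.08). Among the counts of these receptors Optn took 11.2% (interval 10.3% to 12.1%) in FLExDUX4 and 8.62% (7.91% to 9.37%) in WT, and Nbr1 took 7.17% (6.45% to 7.95%) and 8.95% (8.22% to 9.71%). The order of Optn and Nbr1 thus differed between the genotypes, with Optn ahead in FLExDUX4 and close to Nbr1 in WT.

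Of the mitophagy genes, Bnip3 and Fundc1 were past 0.25 and Bnip3l and Pink1 were not. Bnip3, an outer membrane receptor for LC3, had 2216 and 2645 counts, or 170.8 and 142.5 CPM, a log2 ratio of 0.26 (interval 0.18 to 0.34). Fundc1, another such receptor, had 331 and 395 counts, or 25.5 and 21.3 CPM, a ratio of 0.26 (interval 0.05 to 0.48). Both were at -0.01 with spike-in scaling, where the median of all genes was -0.28. Bnip3 and Fundc1 also fell just under 0.25 with upper quartile scaling (0.2451 and 0.2456) and gene totals (0.2312 and 0.2318). With a minimum of 50 counts in each total they were at 0.2477 and 0.2483. Bnip3l, the paralog of Bnip3, had 217 and 334 counts and a ratio of -0.10 (interval -0.36 to 0.15). Bnip3 held 91.1% (interval 89.9% to 92.2%) of the counts of Bnip3 and Bnip3l in FLExDUX4 and 88.8% (87.6% to 89.9%) in WT, and the intervals just overlapped.

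The lysosomal genes lay within 0.20 of 0 with TMM scaling, and none of the 6 was past 0.25 in either direction, beside 26.8% and 26.9% of all genes. With spike-in scaling Lamp1, at -0.37, was past -0.25. Their total was 11957 counts in FLExDUX4 and 16773 in WT, or 921.6 and 903.8 CPM, a log2 ratio of 0.03 (interval -0.01 to 0.06). Lamp1 had a ratio of -0.10 (interval -0.15 to -0.04) and Lamp2, its paralog needed for fusion with autophagosomes, of 0.09 (interval -0.02 to 0.21). Lamp1 took 80.1% (interval 79.0% to 81.2%) of the counts of Lamp1 and Lamp2 in FLExDUX4 and 82.1% (81.3% to 83.0%) in WT. The cysteine proteases Ctsb and Ctsl had ratios of 0.20 (interval 0.11 to 0.29) and 0.17 (interval 0.05 to 0.29), which were -0.08 and -0.10 with spike-in scaling. Of the counts of the cathepsins listed, Ctsd took 57.4% (interval 56.2% to 58.6%) in FLExDUX4 and 60.0% (59.0% to 61.1%) in WT. Tfeb, the transcription factor of lysosomal genes, had 433 and 575 counts, or 33.4 and 31.0 CPM, a ratio of 0.11 (interval -0.08 to 0.29).

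**Figure D3:**
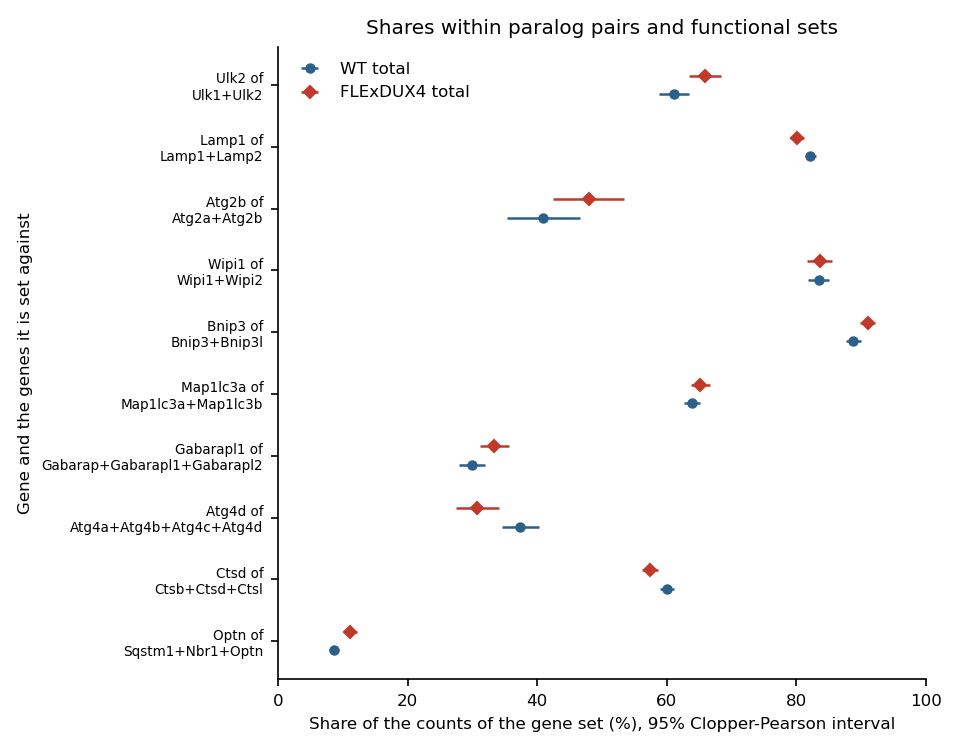
Share of the counts of a paralog pair or functional set (%) that fell on one gene, in the FLExDUX4 total (diamonds) and the WT total (circles), with 95% Clopper-Pearson intervals of counting error. The intervals of Atg4d, Optn, Ctsd and Lamp1 do not overlap between the genotypes. Those of Ulk2, Atg2b, Wipi1, Map1lc3a, Gabarapl1 and Bnip3 do.

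Macrophages are rich in lysosomes, so their markers were counted beside the lysosomal genes. Over 12 macrophage markers the summed level was 113.8 CPM in FLExDUX4 and 117.4 CPM in WT, a log2 ratio of -0.04 (interval -0.14 to 0.05), but Lyz2 held 514 of the 1477 counts in FLExDUX4 and 747 of the 2178 in WT. The median over the 12 was -0.38, and 6 were past -0.25 while 1 was past 0.25, beside 26.9% and 26.8% of all genes. Cd14, Fcgr3 and C1qb had ratios of -0.83 (interval -1.65 to -0.09), -0.71 (interval -1.41 to -0.06) and -0.62 (interval -1.12 to -0.15), and Cd68, itself a lysosomal protein of macrophages, had 23 and 52 counts. Cd163, a scavenger receptor, was the one past 0.25, at 0.92 (interval 0.57 to 1.26), and Lyz2 and Csf1r were at -0.02 and 0.01. No defining marker was at 0. The summed levels of fibroblast markers were 1737 and 1519 CPM, of adipocyte markers 373.2 and 293.8 CPM, of blood markers 1279 and 1020 CPM and of endothelial markers 160.8 and 188.2 CPM. All 6 fibroblast and all 5 blood markers were above 0 (3 and 4 of them with spike-in scaling), beside 49.9% of all genes, and 3 of 5 endothelial markers were past -0.25. Of the fibroblast markers, Col3a1, Dcn and Pdgfra had intervals that held 0. Of the 5 adipocyte markers 4 were above 0, and Lep was at -0.82 (interval -1.95 to 0.15). The part of these cells in the higher members was not tested.

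The 10 members listed as FoxO-responsive genes of muscle autophagy had a median log2 ratio of 0.16 (-0.12 with spike-in scaling), with 4 past 0.25 (Gabarapl1, Pik3c3, Ulk2 and Bnip3, the interval of Pik3c3 holding 0) and 0 past -0.25, beside 26.8% and 26.9% of all genes. Genes of the pathway outside the 43 were counted from lists in the same way. Of 33 further autophagy genes compared, 7 were past 0.25 (21.2%) and 5 past -0.25 (15.2%), both below the shares of all genes, with a median of 0.03. Snap29, a SNARE protein of autophagosome fusion, had 193 and 155 counts and a ratio of 0.83 (interval 0.52 to 1.15), and Tmem41b, a scramblase of the early autophagosome, had 156 and 151 counts and a ratio of 0.56 (interval 0.23 to 0.90). Rubcn, an inhibitor of the lipid kinase complex, had 200 and 370 counts and a ratio of -0.37 (interval -0.63 to -0.12), and Plekhm1, a fusion adaptor, had a ratio of -0.36 (interval -0.77 to 0.03). These were the lowest among genes with at least 50 counts in both totals, a minimum that leaves out genes low in one genotype. Vps18, a subunit of the complexes that tether membranes to the lysosome, fell outside it with 34 and 135 counts, had a lower ratio of -1.46 (interval -2.06 to -0.92), and was named after its values were seen. Of 10 further mitophagy genes, 3 were past 0.25 (30%) and 1 past -0.25 (10%). Mul1, a mitochondrial ubiquitin ligase, had 215 and 381 counts and a ratio of -0.31 (interval -0.56 to -0.06), and Phb2, a prohibitin of the inner membrane, had a ratio of -0.04 (interval -0.14 to 0.06). Fkbp8, a receptor for LC3 on mitochondria, had 34.4 and 28.6 CPM (interval of the ratio 0.08 to 0.45), and Tbk1, a kinase that acts on Optn, had a ratio of 0.34 (interval -0.11 to 0.78).

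The wider lysosome showed no common direction. Of 34 further hydrolases compared, 8 were past 0.25 (23.5%) and 10 past -0.25 (29.4%), near the 26.8% and 26.9% of all genes, with a median log2 ratio of 0.03. Asah1, acid ceramidase, had 151 and 107 counts, or 11.6 and 5.77 CPM, a ratio of 1.01 (interval 0.65 to 1.38), and Gusb, beta-glucuronidase, had 54 and 107 counts and a ratio of -0.46 (interval -0.97 to 0.01). Of 22 membrane and sorting genes, 5 were past 0.25 (22.7%) and 1 past -0.25 (4.55%), with a median of 0.003. Npc1, the lysosomal cholesterol exporter, had 967 and 985 counts, or 74.5 and 53.1 CPM, a ratio of 0.49 (interval 0.36 to 0.62), and Tmem192, a lysosomal membrane protein, had 104 and 104 counts and a ratio of 0.52 (interval 0.11 to 0.92). Gnptab, which makes the mannose 6-phosphate sorting tag, and Grn, progranulin, had ratios of -0.22 (interval -0.62 to 0.16) and -0.19 (interval -0.45 to 0.06). The one gene of this list past -0.25 was Mcoln1, a lysosomal calcium channel, at -0.77 (interval -1.64 to 0.01) from 19 and 47 counts, under the minimum of 50 and so named after its values were seen. Of 16 subunits of the v-ATPase, the proton pump that acidifies the lysosome, 3 were past 0.25 (18.8%) and 2 past -0.25 (12.5%), with a median of -0.01. Atp6v0d1 and Atp6v0b had ratios of 0.46 (interval 0.20 to 0.71) and 0.35 (interval 0.21 to 0.49), and Atp6v1c1 and Atp6ap2 of -0.26 (interval -0.51 to -0.01) and -0.29 (interval -0.62 to 0.03). Mitf, a relative of Tfeb, had 430 and 406 counts, or 33.1 and 21.9 CPM, a ratio of 0.60 (interval 0.40 to 0.80), and Tfe3, the other relative compared, had 0.26 (interval -0.16 to 0.67).

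**Figure D4:**
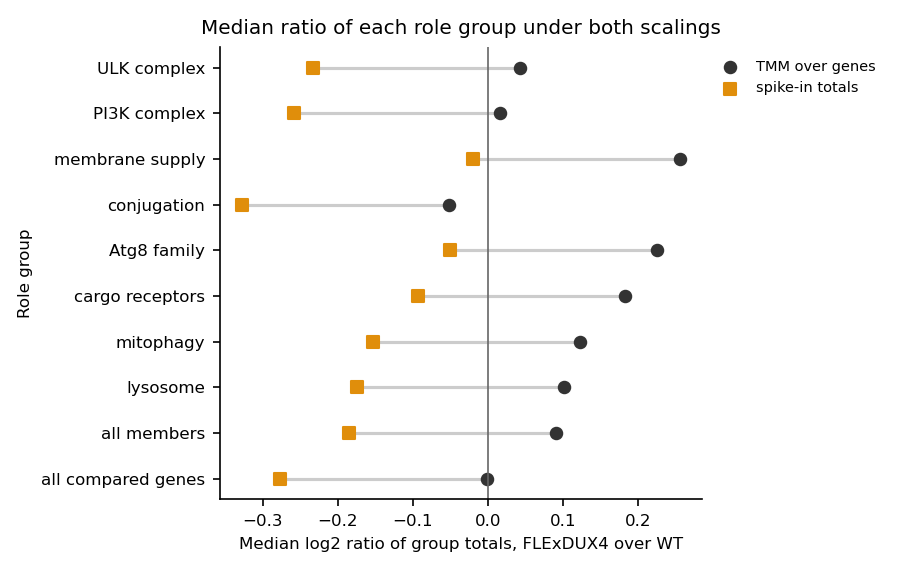
Median log2 ratio of the FLExDUX4 total to the WT total for each role group, for all members and for all compared genes, under TMM scaling over genes (circles) and under spike-in totals (squares). Every median moves left by 0.28 with the spike-ins, so that the Atg8 family goes from 0.23 to -0.05 and all members from 0.09 to -0.18, while the order of the groups is the same.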

How the data were processed

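The authors trimmed QuantSeq reads with cutadapt 1.16 and aligned them with STAR 2.5.3a to GRCm38 joined to ERCC and SIRV spike-in sequences. The submitters' processing notes also name featureCounts 1.6.2 and, beside GRCm38, the human build GRCh38, whose use was not given in the sources used here. The deposited values used are whole-number counts per gene, summed over the mice of a genotype, without normalization. Another 6 columns, each for a single sample, carry headers that could not be tied to any label and entered no step. The table also holds the authors' DESeq2 mean, fold change, standard error, statistic and p-values, which were not used either. The planned test over mice was therefore not run, and no p-value is given. This limits precision to counting error, at 13110125 and 18367364 counts on genes.

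Genes were matched by symbol on Ensembl mouse rows. Library totals over genes, without the 99 spike-ins, received TMM factors from edgeR (version 4.0.16, under R 4.3.3), computed on the 13396 genes that filterByExpr kept. Log2 ratios used a pseudocount of 0.5 counts. The 95% Clopper-Pearson intervals (scipy 1.17.1, Python 3.11.15) cover counting error only, and were tested on simulated data. A log2 ratio of 0.25 in size counted as past the threshold. Members past it with an interval that excludes 0, and the 5 with the most counts, are given in full. Other pathway genes named are the 2 highest and 2 lowest ratios of a list, where both totals reached 50 counts. Some genes that this rule names are not reported here. Members and lists were chosen with earlier results of these data known. Coordinates are from GENCODE M21 (GRCm38) and are printed where the start equals the deposited one, as for 40 of 43 members. Alternatives were RLE, upper quartile, gene total and spike-in scaling, other filters, pseudocount and sizes.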

Additional observations from a re-analysis of the deposited data

How the results depend on the processing

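No paired analysis was possible because only group totals entered the comparison, and for the same reason the tests over mice, other tools and leaving out each replicate were not run. The number of members higher by at least 0.25 was 11. It became 9 with upper quartile, 9 with gene totals, 4 with spike-in totals, 12 without a filter and 8 where both totals reached 50. At a size of 0.5 it was 4, and where both totals reached 200 (chosen after seeing the data) it was 7. The number lower was 1, and became 3 with upper quartile, 3 with gene totals, 15 with spike-in totals, 2 without a filter, 2 where both totals reached 50 and 0 at a size of 0.5, the scaling being refitted for these changes of filter. The median over members, 0.09, was 0.0611 with gene totals and reversed to -0.18 with spike-in totals. That scaling shifts every gene by -0.28 and left 9 members above 0 in place of 28. Of the members past 0.25, Bnip3 (-0.0148) and Fundc1 (-0.0142) changed sign. These signs follow from the size of each ratio, and the median and both genes stayed above the all-gene median of -0.28. Spike-in totals moved 30 other members past their counting interval, and the other settings moved none of the members they kept. What moved the spike-in totals apart from the gene totals was not tested. Counting depth limits the rarer members: with 103 and 114 counts, Pik3c3 had an interval from -0.03 to 0.77, so a difference of the size of the Atg8 family median, 0.23, was not detectable there.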
